A study of Mus musculus with 12 samples.

Results

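Most of the 69 genes described here are named for parts of the motile cilium, the beating, hair-like projection of specialised epithelial cells. The others act in its assembly or in the control of its genes. All 69 were chosen by symbol from a table of 54532 genes, 22046 of them protein coding. The rule took every protein-coding symbol of the Cfap, Dnah, Dnaaf, Rsph and Tekt series (Tekt with a single digit from 1 to 5), together with Foxj1, Spag6, Spag6l, Spag16, Spag17 and Hydin. It used names and no measured value, and a name does not show that a gene serves motile cilia alone. The rule also asked for Dnai symbols, which no row carried. The table lists Dnaic1 and Dnaic2, older symbols of the dynein intermediate chain genes Dnai1 and Dnai2, and these are given beside the 69 and not counted with them. By textbook role, the 69 comprised 1 regulator (Foxj1), 5 outer-arm and 10 inner-arm dynein heavy chains, 6 dynein assembly factors, 8 radial spoke proteins, 11 central pair proteins, 5 tektins and 23 other cilia and flagella associated proteins (Cfap).

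A motile cilium is built on a ring of microtubule doublets around a central pair. Dynein arms on the doublets make the cilium bend, and the radial spokes and the central pair set the rhythm of the arms. In the brain, motile cilia stand in tufts on the ependymal cells that line the ventricles, where their beating moves cerebrospinal fluid along the wall. The epithelium of the choroid plexus, which secretes that fluid, also carries cilia, and whether those beat on day 15 was not measured here. Foxj1 is the transcription factor that switches on the genes of the motile axoneme, in concert with factors of the RFX family. Neurons and astrocytes instead carry a single non-motile primary cilium, which needs intraflagellar transport but neither dynein arms nor spokes.

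PolyA RNA was sequenced from entire hippocampi of mice of the inbred strain C57BL/6J, in 4 groups of 3 animals. Each pup was injected subcutaneously on postnatal day 3 and intraperitoneally on day 14, with saline or with lipopolysaccharide (LPS, an endotoxin of Gram-negative bacteria that activates innate immunity) at 5 mg/kg, and all tissue was taken on day 15, 24 h after the second injection. The group names give the order of the injections: SS received saline on both days, SL saline and then LPS, LS LPS and then saline, and LL LPS on both days. The labels give the same strain for every group, and the sex of the pups is not stated in the labels.

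The libraries held 16979666 to 24105022 fragments in the listed genes, and levels are the deposited FPKM, which divide a gene's fragments by its length and by the size of the library. A single fragment in a gene of 1 kb was worth 0.0402 to 0.0587 FPKM. The 10 hippocampal neuron genes summed to between 1134 and 1305 FPKM in every library, and none of the 10 was called by limma in any comparison (at most 2 at an unadjusted p under 0.05). RNA of the neighbouring choroid plexus was present to unequal extents. Transthyretin (Ttr), the most abundant choroid plexus transcript, was at 2455, 2093 and 2299 FPKM in SS replicates 1, 2 and 3, and at 853, 838 and 605 in SL. It was at 1087, 47.7 and 14.9 FPKM in the LS libraries and at 2169, 2264 and 3086 in those of LL. LS replicates 2 and 3 thus stood apart from every other library for this marker. The sum over the 16 choroid plexus genes ran from 2354 to 2806 FPKM (SS), 679.1 to 942.4 (SL), 38.59 to 1235 (LS) and 2398 to 3461 (LL), and Tmem72 was listed at 0 in LS replicate 3. Because the choroid plexus epithelium also carries cilia, these values are given beside the results they move with. In bulk tissue, fewer cells of a type and less RNA per cell cannot be told apart.

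The promoters of the cilia genes held a common short sequence more often than promoters at large, and 6 of the 7 genes that passed the test in any comparison below are shown with theirs (RefSeq, GRCm38.p6, 250 bases before to 50 after the annotated start, 5′ to 3′ on the gene's strand). RFX factors bind the X-box, a paired element whose conserved unit is GTTGCC. Capitals mark GTTGCC or its reverse complement GGCAAC. The windows are chr11:72361833-72362132 on the minus strand for Tekt1, chr16:44394549-44394848 on the plus strand for Cfap44, chr4:155408940-155409239 on the plus strand for Cfap74, chr6:90428431-90428730 on the minus strand for Cfap100, chr16:16829314-16829613 on the minus strand for Spag6l, and chr6:73221582-73221881 on the minus strand for Dnah6.
Tekt1: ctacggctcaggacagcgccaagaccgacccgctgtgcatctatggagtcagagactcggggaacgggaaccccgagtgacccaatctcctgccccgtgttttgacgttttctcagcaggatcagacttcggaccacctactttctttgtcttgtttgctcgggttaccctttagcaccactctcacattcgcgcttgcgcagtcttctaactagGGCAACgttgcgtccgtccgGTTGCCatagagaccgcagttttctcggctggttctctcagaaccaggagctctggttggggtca
Cfap44: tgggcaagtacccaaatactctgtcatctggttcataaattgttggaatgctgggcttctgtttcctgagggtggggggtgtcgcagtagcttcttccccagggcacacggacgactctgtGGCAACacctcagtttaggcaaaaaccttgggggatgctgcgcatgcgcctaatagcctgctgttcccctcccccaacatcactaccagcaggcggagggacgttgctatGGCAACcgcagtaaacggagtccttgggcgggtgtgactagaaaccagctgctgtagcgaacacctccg
Cfap74: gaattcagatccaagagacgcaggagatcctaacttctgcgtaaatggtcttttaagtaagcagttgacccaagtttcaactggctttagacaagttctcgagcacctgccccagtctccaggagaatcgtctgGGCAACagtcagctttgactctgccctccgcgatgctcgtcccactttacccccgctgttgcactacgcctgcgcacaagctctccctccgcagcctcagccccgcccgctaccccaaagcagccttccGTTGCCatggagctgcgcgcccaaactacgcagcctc
Cfap100: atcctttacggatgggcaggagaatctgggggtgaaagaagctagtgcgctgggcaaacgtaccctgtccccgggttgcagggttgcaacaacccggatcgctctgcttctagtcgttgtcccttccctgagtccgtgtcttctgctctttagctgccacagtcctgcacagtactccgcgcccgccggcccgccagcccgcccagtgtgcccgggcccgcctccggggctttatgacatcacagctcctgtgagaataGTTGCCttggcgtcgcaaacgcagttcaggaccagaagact
Spag6l: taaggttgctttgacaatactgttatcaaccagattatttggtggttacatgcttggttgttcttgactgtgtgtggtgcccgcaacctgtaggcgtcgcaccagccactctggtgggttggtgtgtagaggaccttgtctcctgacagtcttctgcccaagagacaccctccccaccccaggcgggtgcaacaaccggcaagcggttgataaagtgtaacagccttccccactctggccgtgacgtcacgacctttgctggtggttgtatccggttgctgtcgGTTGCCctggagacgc
Dnah6: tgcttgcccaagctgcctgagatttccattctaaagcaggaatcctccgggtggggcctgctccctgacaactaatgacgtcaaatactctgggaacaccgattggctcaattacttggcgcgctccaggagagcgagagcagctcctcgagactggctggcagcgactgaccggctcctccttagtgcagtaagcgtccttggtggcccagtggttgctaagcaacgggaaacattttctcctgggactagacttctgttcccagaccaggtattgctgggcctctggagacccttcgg
Tekt1, Cfap44 and Cfap74 each held 2 RFX units, and in each gene 1 of them lay within the longer spelling GTTGCCAT. In the Tekt1 window shown the 2 units stood at positions -35 and -15 relative to the start, on opposite strands. Units were searched singly, and whether any of them form a paired X-box was not tested. RefSeq lists a second Tekt1 promoter, at chr11:72361247-72361546 on the minus strand, which held 0 RFX units and is not printed. A second Cfap74 entry, at chr4:155408990-155409289 on the plus strand, overlaps the window shown and held the same 2 units. Cfap100 and Spag6l held 1 RFX unit, and the Dnah6 window held neither GTTGCC nor GGCAAC. Only exact spellings were searched, so near matches, such as gttgctaagcaac in the Dnah6 window, were not counted. RefSeq entries matched 56 of the 69 genes, with 63 promoters among 32851 in the table. Rsph1, the called gene not shown, and Foxj1 had no entry, so the motif shares do not cover them. GTTGCC on either strand occurred in 26 of the 63, or 41.3%, against 12.5% of all promoters. The longer GTTGCCA occurred in 22.2% against 4.38%, and GTTGCCAT in 11.1% against 1.35%. These spellings are nested, so the counts overlap. Among forkhead spellings, the kind of site that Foxj1 binds, TGTTTAC occurred in 6.35% of the 63 promoters against 3.65% of all. TGTTTGC occurred in 9.52% against 5.07%, and TGTTTGT in 3.17% against 6.61%. The 6 motifs were searched on both strands after the expression results had been seen, and a match of letters is a description and not a binding site.

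Most motile cilia genes were present at low levels in this tissue. Averaged over the 12 libraries, their levels ran from 0.0563 FPKM for the spoke gene Rsph6a to 25.3 FPKM for Cfap36, with a median of 0.661. Of the 69 genes, 42 averaged under 1 FPKM, 19 between 1 and 5, and 8 at 5 or more. Cfap36 was followed by Foxj1 at 9.11 FPKM, Cfap20, a component of the seam of the doublet, at 8.29, the spoke head gene Rsph9 at 7.72 and the assembly factor Cfap298 at 6.74. Reads of Cfap298 are uncertain, since 44.2% of its exon bases are shared with Gm49727 on the opposite strand and whether counting used the strand is not stated in the sources used here. The near-identical pair Rsph3a and Rsph3b is uncertain as well, with 48.8% of the 75-base windows of Rsph3a found in Rsph3b.

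Genes were tested where at least 3 libraries reached 0.5 FPKM, which 43 of the 69 did, and none of the 43 reached it through 1 group alone. The 26 others did not, although 23 of them held at least 10 fragments in 3 or more libraries, since FPKM divides by length and long genes can miss 0.5 FPKM with many fragments. Hydin, a giant central pair protein whose loss causes hydrocephalus in mice, averaged 0.265 ± 0.0826 FPKM for SS, 0.16 ± 0.024 for SL, 0.336 ± 0.107 for LS and 0.363 ± 0.0599 for LL (SD, n = 3). Those means rest on 252, 170, 355 and 466 fragments. Its 3 SL libraries, at 0.186, 0.138 and 0.157 FPKM, lay below all LS and LL libraries and overlapped with SS. Spag17, also of the central pair, was between 0.0751 and 0.249 FPKM in all 12 libraries, and its groups overlapped. Spag6, the copy of the central pair gene Spag6l on chromosome 2, was between 0.137 and 0.363 FPKM. Dnaaf1, which acts in the cytoplasmic assembly of dynein arms, was between 0.0786 and 0.471 FPKM. The 3 genes under 10 fragments were Cfap97d1, Tekt3 and Rsph6a.

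Foxj1 itself was measured well, with 1248 to 2021 fragments per group, and did not pass the test in any comparison. It lies at chromosome 11, 116330704 to 116335399 (mm10, minus strand). Its level was 9.63, 7.38 and 10.4 FPKM in SS replicates 1, 2 and 3, 9.57, 9.23 and 6.38 in SL, 9.54, 6.46 and 8.24 after LPS then saline (LS), and 12.9, 9.43 and 10.1 in LL. The order of the group means was LL, SS, SL and LS, and all neighbours in it overlapped. In limma, the model used throughout, its log2 fold change was -0.12 (SE 0.19) for SL against SS, with an adjusted p of 0.774, and 0.40 (SE 0.19) for LL against LS, with an adjusted p of 0.383.

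**Figure D1:**
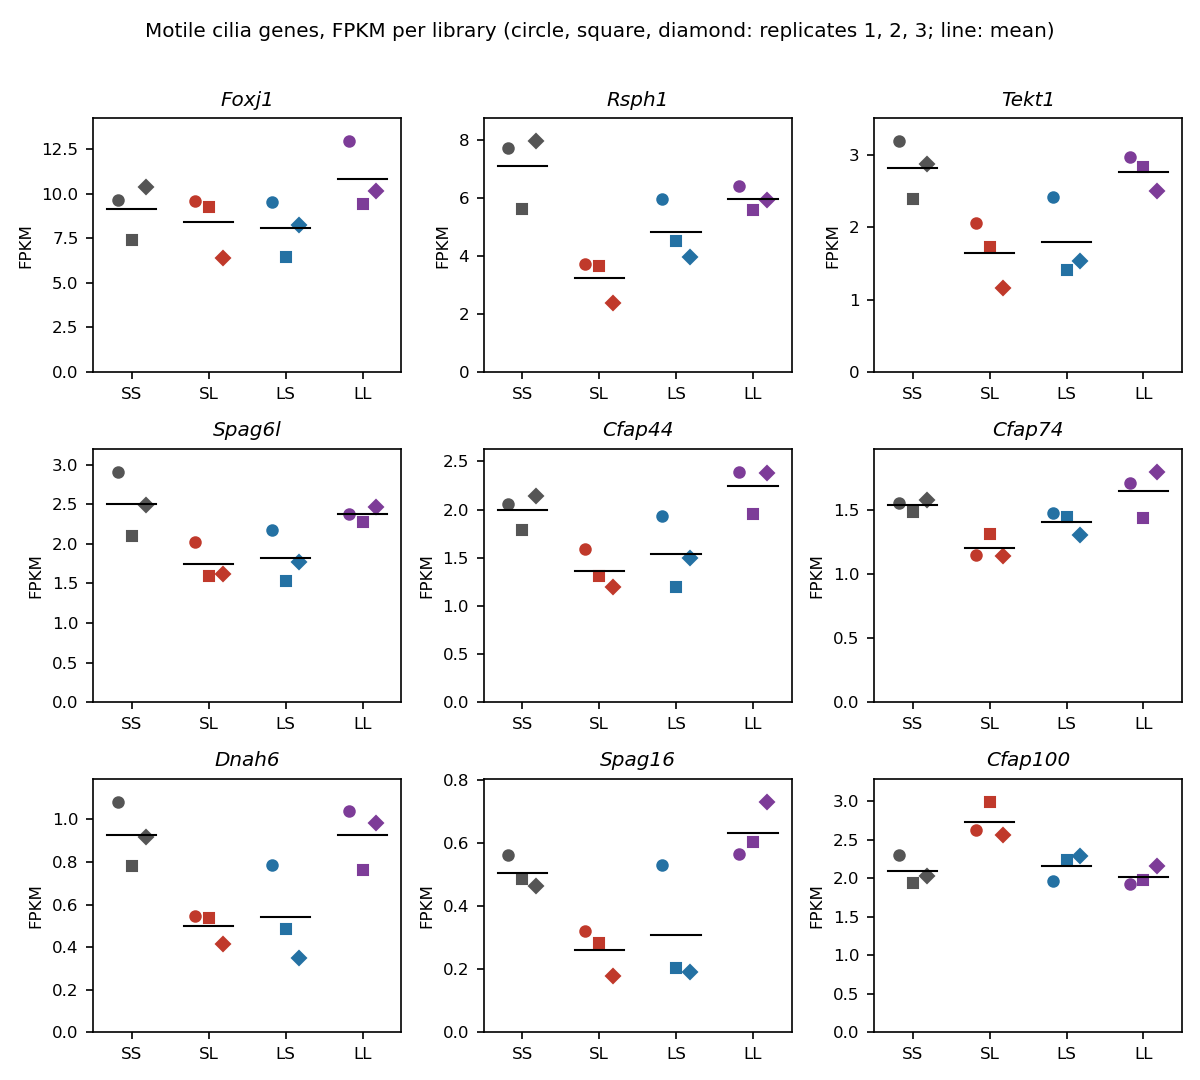
Levels of 9 motile cilia genes in FPKM (y axis, linear, from 0) in the 12 libraries by group (x axis); circles, squares and diamonds are replicates 1, 2 and 3 and lines are group means. Rsph1, Tekt1, Spag6l, Cfap44, Cfap74, Dnah6 and Spag16 have all 3 SL libraries below all 3 SS libraries, Cfap100 has them above, and the Foxj1 groups overlap.

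The comparison of SL with SS addresses the response of the hippocampus to a first LPS exposure on day 14. Few motile cilia genes passed the test, and the largest change was a fall in the spoke head gene Rsph1. Of the 43 tested, Rsph1 and the tektin Tekt1 fell and Cfap100 rose, at an adjusted p under 0.05, where 3.77% of all 17687 tested genes were lower and 7.06% higher. Below that threshold the direction was mostly downward. Log2 fold changes were negative for 34 genes and positive for 9, with a median of -0.17, while the median of all tested genes was -0.0036. At an unadjusted p under 0.05 stood 16 of the 43 and 22.6% of all tested genes. In 15 of the 43, or 34.9%, every SL library was below every SS library, and in 1, Cfap100, every one was above, against 12.5% and 13.8% of all tested genes. Fold changes are on the scale of log2(FPKM + 0.5), which understates changes at low levels.

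Rsph1, a protein of the spoke head that faces the central pair, lies at chromosome 17, 31255019 to 31277356 (mm10, minus strand). It was at 7.72, 5.62 and 7.95 FPKM in SS replicates 1, 2 and 3 and at 3.73, 3.65 and 2.38 in SL. In LS it was at 5.96, 4.52 and 3.96, and in LL at 6.43, 5.6 and 5.92. SL was thus the lowest group with no overlap with any other, while SS and LL overlapped. The SS mean was 7.10 ± 1.28 and the SL mean 3.25 ± 0.757 FPKM (SD, n = 3). The log2 fold change was -1.02 (SE 0.18), with a limma adjusted p of 0.00271. The call held when any 1 of the 12 libraries was left out, with an adjusted p of at most 0.0153.

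Tekt1, a filament protein inside the doublets at chromosome 11, 72344722 to 72362442 (mm10, minus strand), has the 2 RFX units shown above in 1 of its 2 listed promoters. It was at 3.19, 2.39 and 2.87 FPKM in SS, and 2.06, 1.73 and 1.16 in SL. With LPS on day 3 it was at 2.42, 1.41 and 1.54 FPKM in LS and 2.98, 2.83 and 2.5 in LL. All SL libraries lay below all SS and LL libraries. Its log2 fold change in SL against SS was -0.64 (SE 0.19), with a limma adjusted p of 0.0498. That call held without SL replicate 1, LS replicate 1 or LS replicate 2 and was lost without any 1 of the other 9 libraries, where the adjusted p reached 0.162.

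Cfap100, the mouse homologue of a protein that modifies inner dynein arms in Chlamydomonas, went the other way. It was at 2.31, 1.94 and 2.04 FPKM in SS, and 2.63, 3.00 and 2.57 in SL. With LPS on day 3 its levels were 1.97, 2.24 and 2.29 FPKM in LS and 1.93, 1.97 and 2.16 in LL. All SL libraries were above all 9 others. The log2 fold change was 0.32 (SE 0.086), with a limma adjusted p of 0.0362. The Cfap100 call was lost in 7 of the 12 fits that left out a library, those without SS replicate 2 or 3, any SL replicate, LS replicate 2 or LL replicate 2, with an adjusted p of up to 0.136. It was lost also under quantile normalization and median centring, each of which called 0 cilia genes higher and 7 lower, in place of 1 and 2, where 5.61% and 6.58% of all tested genes were lower.

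Among the central pair proteins, 5 of the 7 tested had all SL libraries below all SS libraries, against 12.5% of all tested genes, and none passed the test. Spag6l was at 2.91, 2.10 and 2.49 FPKM in SS and at 2.03, 1.59 and 1.62 in SL, which is -0.41 on the log2 scale (SE 0.13, limma adjusted p 0.0641). Spag16, which in mouse is needed for sperm motility, was at 0.564, 0.488 and 0.464 FPKM in SS and at 0.321, 0.284 and 0.18 in SL, which is -0.40 (SE 0.17, limma adjusted p 0.196). The 3 others were Cfap54, Cfap70 and Cfap74, with log2 fold changes of -0.34, -0.40 and -0.26. In all 5 the groups separated without overlap, but the difference was too small against the spread of the fit for a call.

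The dynein heavy chains were not uniform. Of the inner-arm chains, Dnah6 was at 1.08, 0.783 and 0.915 FPKM in SS and at 0.548, 0.536 and 0.414 in SL, or -0.51 on the log2 scale (SE 0.16, limma adjusted p 0.0783). The outer-arm chain Dnah9 had higher values in SL, at 1.88, 1.85 and 1.63 FPKM, than the 1.66, 1.41 and 1.57 FPKM of SS, and the groups overlapped (log2 fold change 0.16, SE 0.084, limma adjusted p 0.294). Dnah5, the other outer-arm chain tested, was between 0.489 and 0.780 FPKM in all 12 libraries. The intermediate chain gene Dnaic1, not one of the 69, was at 1.63, 1.44 and 1.69 FPKM in SS and 0.729, 1.17 and 0.916 in SL, and fell by 0.54 on the log2 scale (SE 0.15, limma adjusted p 0.0355). Dnaic2 did not pass the test (log2 fold change -0.25, SE 0.17, limma adjusted p 0.444).

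None of the 4 tested assembly factors was called, and their log2 fold changes ran from -0.21 to 0.33. The spoke gene Rsph4a was at 2.44, 1.62 and 2.08 FPKM in SS and 1.73, 1.55 and 1.17 in SL (log2 fold change -0.36, SE 0.14, limma adjusted p 0.16). Cfap44, a protein that tethers an inner dynein to the doublet together with Cfap43, was at 2.06, 1.79 and 2.15 FPKM in SS and 1.59, 1.31 and 1.20 in SL. Its log2 fold change was -0.42 (SE 0.14), with a limma adjusted p of 0.0777, and that of Cfap43 was -0.23 (SE 0.14), with an adjusted p of 0.38. Cfap126, known as Flattop and needed for the placement of basal bodies, had a wide spread, from 0.781 to 2.29 FPKM within SL and from 1.28 to 2.02 within SS.

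**Figure D2:**
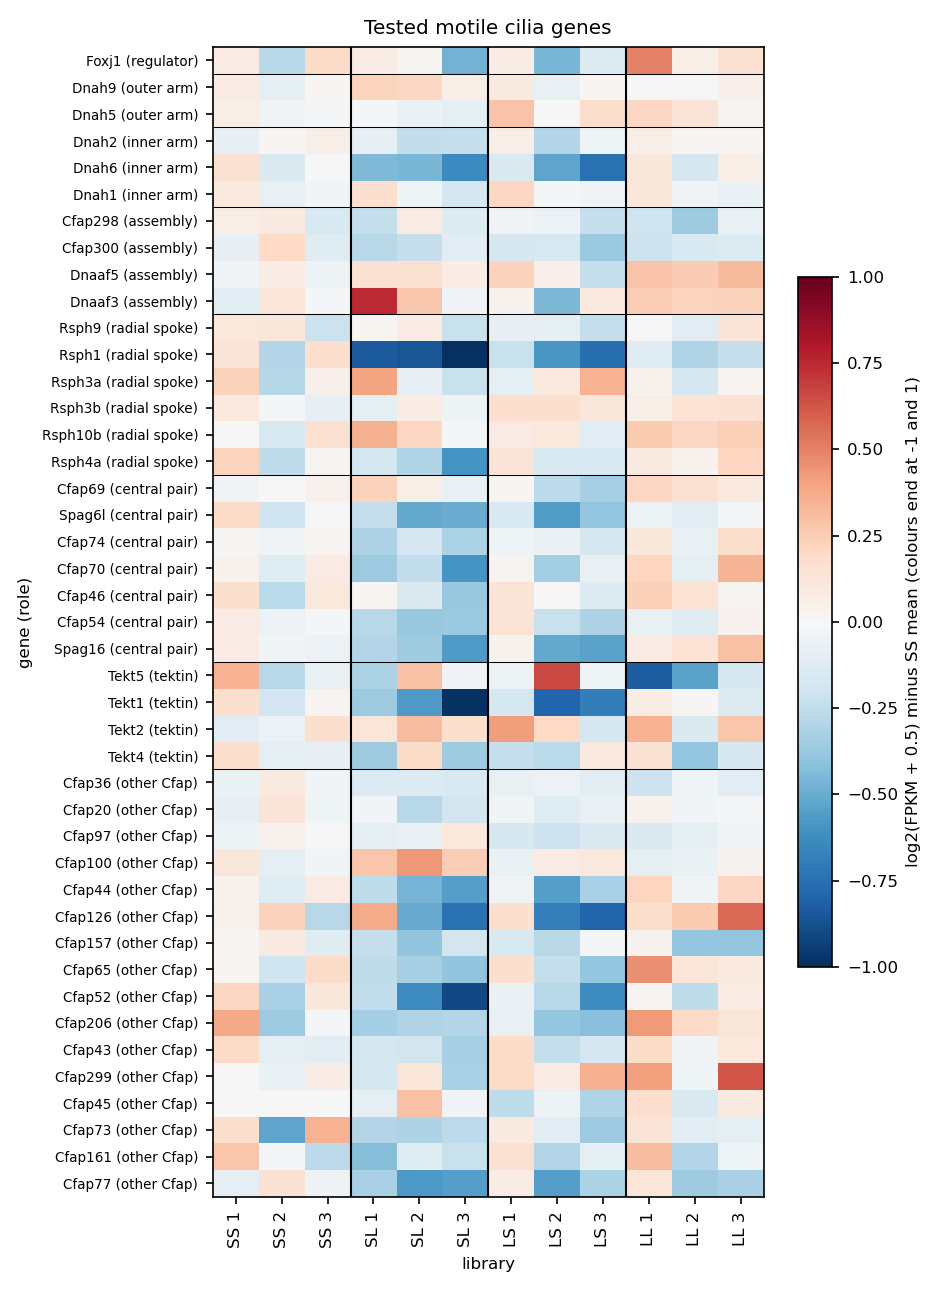
Each row is 1 of the 43 tested genes, ordered by role and then by mean level, and each column a library; colour is log2(FPKM + 0.5) minus the gene's SS mean, with the scale ending at -1 and 1. Rsph1 is the deepest blue row in SL, and LS replicate 1 is paler than LS replicates 2 and 3 in most rows.

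Some other axonemal and ependymal genes also fell in SL, where 3.77% of all tested genes were lower and 7.06% higher. No gene of the primary cilium was called. Of 32 tested further axoneme genes, 4 fell and none rose, among them Dynlrb2, a dynein light chain (log2 fold change -1.4, limma adjusted p 0.00605), Drc7 of the nexin-dynein regulatory complex (-1.08, adjusted p 0.0228) and Meig1 (-0.89, adjusted p 0.0156). Dynlrb2 was at 7.71, 6.77 and 3.31 FPKM in SS and 1.87, 2.24 and 1.4 in SL. Of 7 tested regulators, Gmnc, the geminin family protein that starts the multiciliated cell programme, fell by 0.70 (limma adjusted p 0.0463), from 1.60, 1.35 and 1.5 to 0.929, 0.560 and 0.686 FPKM, while Rfx2, Rfx3 and Trp73 were not called. Of 14 tested ependymal genes, 4 fell and 2 rose, and log2 fold changes were negative for 9 and positive for 5. Pltp, a lipid transfer protein, fell by 1.34, Ccdc153 by 1.32 and Tmem212 by 1.24, whereas Vim, an intermediate filament gene that astrocytes also express, rose by 1.64. None of the 10 tested assembly genes outside the 69 and none of the 35 primary cilium and intraflagellar transport genes was called in limma, with 1 and 3 respectively at an unadjusted p under 0.05.

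Choroid plexus genes fell in the same libraries, and their part in the fall of the cilia genes was not tested. All 16 had every SL library below every SS library, and 6 passed the test. With the mean log2 level of that list as a covariate, 0 of the 43 cilia genes were called, and the value of Rsph1 was -0.68 (SE 0.20, limma adjusted p 0.0879). This covariate differs between the groups, so differences between groups that run with it are lost from this fit. The libraries did not fall in the same order by Ttr as by Rsph1. LS replicates 2 and 3 had 47.7 and 14.9 FPKM of Ttr, far less than any SL library. Rsph1 was higher there, at 4.52 and 3.96 FPKM, than in any SL library. Ccdc153 was higher too, at 3.59 and 3.81 FPKM against 1.06 to 1.37 in SL. Spag16 and Tekt1 lay within the SL range in both of those LS libraries, and Drc7 lay below it in both. Dnah6 was at 0.487 and 0.348 FPKM there, against 0.414 to 0.548 in SL. Spag6l was at 1.526 and 1.775 FPKM, against 1.593 to 2.028. Cfap44, at 1.200 and 1.492 FPKM, did not exceed the 1.588 FPKM of SL replicate 1. Of 12 meningeal fibroblast genes, 6 fell in SL.

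The comparison of LS with SS addresses what the LPS exposure on day 3 alone left on day 15. No motile cilia gene was called in limma, where 0.164% of all tested genes were lower and 0.147% higher, and none was called by limma voom on whole fragments. At an unadjusted p under 0.05 stood 7 of the 43, while 12.6% of all tested genes did. Log2 fold changes were negative for 31 genes and positive for 12, with a median of -0.13 against 0.0044 over all tested genes. The lowest was that of Tekt1, at -0.55 (SE 0.19, limma adjusted p 0.254), followed by Rsph1 at -0.52 (SE 0.18, adjusted p 0.263) and Dnah6 at -0.47 (SE 0.16, adjusted p 0.27). In 4 genes, or 9.3%, all LS libraries were below all SS libraries, and in 2 they were above, against 8.63% and 9.36% of all tested genes. All 16 choroid plexus genes had every LS library below every SS library. The median of the 43 cilia genes was 0.028 without LS replicates 2 and 3, which leaves 1 LS library. With the choroid plexus covariate it was 0.12. The part of the choroid plexus in the downward direction was not tested.

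LS replicate 1 was the highest of its group for 31 of the 43 genes, or 72.1%, against 36.3% of all tested genes. Dnah6 was at 0.787 FPKM there and at 0.487 and 0.348 in replicates 2 and 3, and Spag16 was at 0.531, 0.206 and 0.193. The same library had the highest Ttr of the group. In the other groups the cilia genes also ranked together. SL replicate 3 was the lowest of its group for 62.8% of them, SS replicate 2 for 58.1% and LL replicate 2 for 60.5%, against 31.2%, 35.5% and 31.3% of all tested genes. Ttr was lowest in SL replicate 3 and in SS replicate 2, but in LL it was lowest in replicate 1, which was the highest of its group for 55.8% of the cilia genes (all tested genes 34.4%). Replicate 1 was most often the highest library in SS and SL too, for 46.5% and 58.1% of the cilia genes. Of all tested genes, 32.6% and 39.2% were highest there. Replicate 1 was thus most often the highest in every group, and whether the numbers mark anything shared between groups was not tested for these genes.

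**Figure D3:**
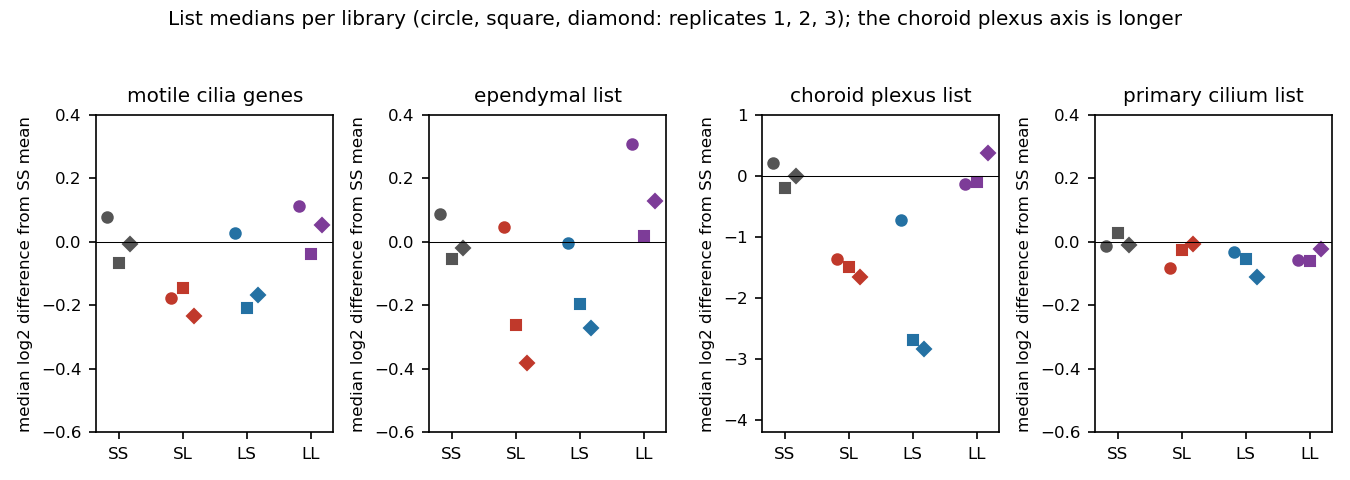
For 4 gene lists, the median over tested genes of log2(FPKM + 0.5) minus the SS mean (y axis) in each library by group (x axis); circles, squares and diamonds are replicates 1, 2 and 3, and the choroid plexus panel has a longer axis. The cilia genes lie between -0.23 and -0.15 in SL and between -0.04 and 0.11 in LL, the choroid plexus genes fall to -2.84 in LS, and the primary cilium genes stay within -0.11 and 0.03 everywhere.

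The comparison of LL with SL addresses whether an earlier LPS exposure altered the state reached after LPS on day 14. Rsph1, Cfap44 and Cfap74 were higher in LL and Cfap100 was lower, where 3.32% of all tested genes were higher and 5.46% lower. Log2 fold changes were positive for 34 of the 43 and negative for 9, with a median of 0.22 against -0.0039 over all tested genes. At an unadjusted p under 0.05 stood 16 of the 43 and 20.4% of all tested genes. In 19 genes, or 44.2%, every LL library was above every SL library, and in Cfap100 and Dnah9 every one was below, against 12.2% and 13.9% of all tested genes. Quantile normalization called 6 higher and 1 lower and median centring 8 higher and 1 lower, where 4.81% and 4.62% of all tested genes were higher. This comparison shares its SL libraries with that of SL and SS, so the opposite directions in them are not independent.

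Rsph1 was higher in LL by 0.81 on the log2 scale (SE 0.18, limma adjusted p 0.0161). Cfap44, at 1.59, 1.31 and 1.20 FPKM in SL and 2.39, 1.95 and 2.38 in LL, rose by 0.56 (SE 0.14, limma adjusted p 0.0268). Cfap74, a central pair protein, was at 1.56, 1.49 and 1.58 FPKM in SS, and 1.15, 1.31 and 1.14 in SL. It was at 1.48, 1.45 and 1.30 FPKM in LS and 1.71, 1.44 and 1.80 in LL. Between SL and LL it changed by 0.34 (SE 0.09, limma adjusted p 0.0428). SL and LL did not overlap for any of these 3 genes. Of the exon bases of Cfap74, 4.55% are shared with 5830444B04Rik on the opposite strand. Cfap100 fell by 0.36 (SE 0.086, limma adjusted p 0.0243). The calls were lost without SL replicate 3 or LL replicate 1 for Rsph1 (adjusted p up to 0.065), without SL replicate 2 or 3 or LL replicate 1 or 3 for Cfap44 (up to 0.103), without SL replicate 2 or LL replicate 1 or 2 for Cfap100 (up to 0.107), and without any 1 library except LL replicate 2 for Cfap74 (up to 0.153). The choroid plexus covariate left 0 of the 4.

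The count in this comparison stayed at 4 with a pseudocount of 0.1 or 1 and differed under other settings. A filter of 10 fragments in 3 libraries admitted 66 of the 69 genes and called 7 higher and 1 lower, where 3.79% and 5.89% of 18698 genes were. The additions were Spag16 (0.58, adjusted p 0.0263), Cfap70 (0.55, adjusted p 0.0296), Cfap65 (0.55, adjusted p 0.043) and Cfap53 (0.55, adjusted p 0.0262), a protein of the doublet lumen and of outer-arm docking, all from limma. With limma voom on whole fragments and the same filter, a setting chosen after the data had been seen, 14 were higher and 1 lower, against 5.58% and 5.9% of all genes. Among those 14 were Hydin (log2 fold change 1.20, SE 0.29, adjusted p 0.0106) and the outer-arm chain Dnah11 (1.11, SE 0.30, adjusted p 0.0249). Dnah11 was at 0.205, 0.172 and 0.138 FPKM in SL and 0.456, 0.295 and 0.348 in LL, from 147 and 378 fragments. These genes are named because the alternative called them.

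Of the further axoneme genes, 6 of 32 were higher in LL than in SL and none lower, with the largest change in Dynlrb2 (1.30, limma adjusted p 0.0129), Meig1 (0.87, adjusted p 0.0226) and Ccdc114 (0.63, adjusted p 0.0244), a component of the outer-arm docking complex. Gmnc was higher by 0.95 (limma adjusted p 0.0122). Of the 14 tested ependymal genes, 4 were higher and 2 lower, where 3.32% of all tested genes were higher and 5.46% lower. Their log2 fold changes ran from -1.105 to 1.408, with 10 positive and 4 negative. Ccdc153 was at 1.37, 1.30 and 1.06 FPKM in SL and 5.53, 3.09 and 3.99 in LL, and Tmem212 at 1.65, 1.30 and 1.08 against 5.90, 3.27 and 4.25. Choroid plexus genes moved alongside, with 5 of 16 called higher and all 16 without overlap. No primary cilium gene was called in limma, and 1 of 35 stood at an unadjusted p under 0.05.

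The comparison of LL with LS addresses the response to LPS on day 14 in animals already exposed to LPS on day 3. No motile cilia gene was called in limma, where 2.4% of all tested genes were higher and 0.26% lower, while 11 of the 43 stood at an unadjusted p under 0.05 against 13.4% of all tested genes. Limma voom on whole fragments called 3, all higher, against 3.25% of all genes, and without LS replicate 1 limma called 3 higher as well, against 2.6%. Log2 fold changes were positive for 34 genes and negative for 9, with a median of 0.13 against -0.0046. Every LL library was above every LS library in 11 genes, or 25.6%, and below in 1, against 11% and 8.85% of all tested genes. Cfap126 had the largest value, at 0.77 (SE 0.31, limma adjusted p 0.287), with 1.91, 0.840 and 0.735 FPKM in LS and 1.93, 2.08 and 2.69 in LL. Tekt5, a tektin known from sperm flagella, had the lowest, at -0.70 (SE 0.25, limma adjusted p 0.223). The median of the 43 was 0.029 without LS replicates 2 and 3, and -0.054 with the choroid plexus covariate.

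Outside the 69, 2 of 32 further axoneme genes and 1 of 7 regulators were called in LL against LS, all higher. Of all tested genes, 2.4% were higher. Nme5, a radial spoke protein, was higher by 0.60 (limma adjusted p 0.00973), with 3.88, 3.44 and 3.48 FPKM in LS and 5.26, 6.27 and 5.65 in LL, and Wdr78, a dynein intermediate chain, by 0.45 (adjusted p 0.0351). Gmnc was higher by 1.21 (limma adjusted p 0.00849), from 0.925, 0.338 and 0.378 to 1.63, 1.70 and 2.28 FPKM. Choroid plexus genes were higher for 14 of 16, and 1 of 14 ependymal genes was. In LL against SS no motile cilia gene was called in limma, where 2.13% of all tested genes were higher and 0.283% lower. Limma voom called none either, and 2 of the 43 stood at an unadjusted p under 0.05 against 12.4% of all tested genes. The median log2 fold change there was 0.021. Every LL library was above every SS library in 5 genes and below in 1, against 10.9% and 9.53% of all tested genes.

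**Figure D4:**
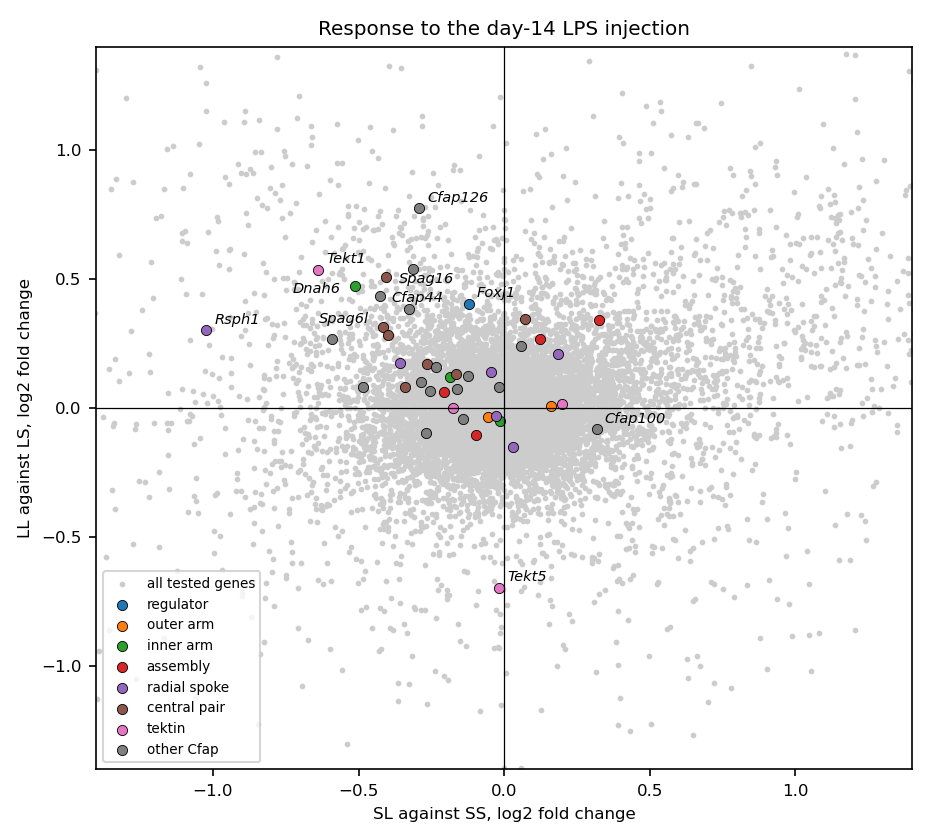
Log2 fold change of LL against LS (y axis) and of SL against SS (x axis), the response to LPS on day 14 after LPS or after saline on day 3; coloured points are the 43 tested cilia genes by role, and grey points are all tested genes within the axes. Rsph1, Tekt1, Dnah6, Cfap44 and Spag6l lie in the upper left quadrant, with a negative response after saline and a positive value after LPS.

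The interaction, LL minus LS less SL minus SS, tests whether LPS on day 14 acted differently after LPS than after saline on day 3. It was positive and past the threshold for 5 of the 43 genes and negative for none, where 2.14% of all tested genes were called positive and 3.19% negative. By role, the 5 belong to the radial spoke (Rsph1), the doublet (Tekt1), the inner dynein arms (Dnah6), the tether of an inner arm (Cfap44) and the central pair (Spag6l). At an unadjusted p under 0.05 stood 15 of the 43 and 17.1% of all tested genes. Values were positive for 35 genes and negative for 8, with a median of 0.27 against -0.011 over all tested genes. Rsph1 had the largest value, 1.33 (SE 0.25, limma adjusted p 0.00995), made of -1.02 after saline and 0.30 after LPS. Tekt1 followed at 1.18 (SE 0.26, adjusted p 0.0233), then Dnah6 at 0.98 (SE 0.23, adjusted p 0.0323), Cfap44 at 0.86 (SE 0.19, adjusted p 0.0244) and Spag6l at 0.73 (SE 0.18, adjusted p 0.0398). Spag16 missed the threshold, at 0.91 (SE 0.25, limma adjusted p 0.0601), and Foxj1 at 0.53 (SE 0.26, adjusted p 0.354). None of the 4 tested assembly factors and neither outer-arm chain was called.

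These interaction values moved with choroid plexus genes, all 16 of which were called positive. With the choroid plexus covariate, or without LS replicates 2 and 3, 0 of the 43 were called, and the value of Rsph1 was 0.45 (limma adjusted p 0.84) and 1.03 (adjusted p 0.135). Rsph1 was called whichever single library was left out, with an adjusted p of at most 0.0304. Tekt1 lost its call without SS replicate 1 or 3, LS replicate 2 or 3, or LL replicate 1 or 2, and Cfap44 without SS replicate 1 or 3, SL replicate 2 or 3, LS replicate 2 or 3, or LL replicate 1 or 3. Dnah6 kept its call without SS replicate 2, LS replicate 1 or LL replicate 2, and Spag6l without SS replicate 2, SL replicate 1 or LS replicate 1. Where lost, the adjusted p stayed under 0.1, at most 0.0991 for Spag6l.

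With the filter of 10 fragments the interaction was positive for 8 of the 66 genes admitted and negative for none, where 2.44% and 3.56% of 18698 genes were. The 3 additions were Spag16 (0.91, adjusted p 0.0206), Cfap53 (1.08, adjusted p 0.00539) and Cfap61 (0.53, adjusted p 0.0411), a protein at the base of a radial spoke, all from limma. Cfap53 was at 0.497, 0.446 and 0.396 FPKM in SS, and 0.327, 0.219 and 0.107 in SL, and with LPS on day 3 at 0.246, 0.0764 and 0.146 in LS and 0.681, 0.415 and 0.537 in LL. Its SL and LS libraries overlapped with each other and lay below all SS and LL libraries. Among the further axoneme genes the interaction was positive for 6 of 32, with Drc7 at 1.99 (limma adjusted p 0.00975), Dynlrb2 at 1.77 (adjusted p 0.0219) and Meig1 at 1.31 (adjusted p 0.0229). Drc7 was at 4.52, 3.28 and 4.51 FPKM in SS, and 1.75, 1.94 and 1.33 in SL, and with LPS on day 3 at 2.98, 1.01 and 1.27 in LS and 3.42, 2.90 and 4.12 in LL. Gmnc was at 1.92 (limma adjusted p 0.00231). Of 14 ependymal genes 4 were called positive and 1 negative, and the values of the 14 ran from -1.328 to 1.623. None of the 35 primary cilium genes was called, with 3 at an unadjusted p under 0.05.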

How the data were processed

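The authors deposited 1 table of FPKM per gene and library for 12 hippocampal libraries, 3 animals in each of 4 groups. The submitters' processing notes name HISAT2 2.0.5, featureCounts 1.5.0-p3 and the build mm10; strand and the handling of shared fragments are not stated in the sources used here. FPKM times gene length gave whole fragments within 0.01 for 100% of 309337 values above 0. Replicates differed by more than repeated sampling of a single library would give (chi-square per gene 3.59 to 11.5). Separate libraries made from the same RNA could differ as much, so these values do not speak to that.

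With limma 3.58.1 in R 4.3.3 (empirical Bayes with a mean trend), log2(FPKM + 0.5) of the 17687 genes with at least 0.5 FPKM in 3 libraries was modelled by 4 group means, leaving 8 residual degrees of freedom. Tests had 2 sides and Benjamini-Hochberg adjustment over all tested genes, separately for the 6 comparisons, and the threshold was 0.05. The code was checked on simulated data. An exact permutation test of 3 against 3 cannot go below 0.1.

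Alternatives were no filter, a filter of 10 fragments, pseudocounts of 1 and 0.1, median centring, quantile normalization, limma voom on the fragments, the replicate number as a block, the groups compared alone, a choroid plexus covariate, and leaving out each library or LS replicates 2 and 3. Voom with the 10-fragment filter was added after seeing the data. The genes and lists were chosen with earlier results of these data known. Genes named throughout were 14 fixed cilia genes with Dnaic1 and Dnaic2, the 5 with the highest mean level, called genes (up to 8 per comparison and direction), up to 3 called genes per further list, and Ttr; others named were chosen after their values were seen. Gene positions are those of the table (mm10), and all 69 genes were found in GENCODE vM21, 64 at the same position.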

Additional observations from a re-analysis of the deposited data

Results flagged for a closer look

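For 5 genes the effect of the day-14 LPS injection differed by the injection on day 3, by the interaction term of the limma fit, where 2.14% of all tested genes were called positive and 3.19% negative. The log2 difference was 1.33 for Rsph1, 1.18 for Tekt1, 0.98 for Dnah6, 0.86 for Cfap44 and 0.73 for Spag6l. Levels were lower in all 3 SL libraries than in all 3 SS libraries for each of the 5. All 16 choroid plexus genes were called positive too, and 0 of the 5 remained called with the choroid plexus covariate or without LS replicates 2 and 3. The part of the choroid plexus in these values was not tested. No sample outlier could be assessed in groups of 3.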

How the results depend on the processing

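No called fold change of the 7 called motile cilia genes turned its sign in the alternatives run; those of named genes outside the 69 were not recomputed. The counts for LS against SS and LL against SS were 0 under every alternative. Elsewhere the number called was sensitive to the setting. For SL against SS it was 3, became 7 (all lower) under quantile normalization or median centring, 6 under limma voom with either filter, 1 with no filter or in the compared groups alone and 0 with the choroid plexus covariate, and ran from 1 to 6 as single libraries were left out. It was 1 without SS replicate 3, SL replicate 2 or 3, or LL replicate 2, and 6 without LS replicate 1. For LL against LS it was 0, became 1 with the 10-fragment filter, 3 under voom and 4 under voom with that filter, and ran from 0 to 3. For LL against SL it was 4, became 7 under quantile normalization, 9 under median centring, 1 with no filter, 8 with the 10-fragment filter, 12 under voom, 15 under voom with that filter and 0 with the covariate, and ran from 0 to 7. It was 0 without LL replicate 1, 1 without SL replicate 2 or 3, 2 without LL replicate 3 and 7 without LS replicate 1. For the interaction it was 5, became 2 with no filter, 8 with the 10-fragment filter, 10 under voom with that filter, and 0 with the covariate or without LS replicates 2 and 3, and ran from 1 to 7. It was 1 without SS replicate 1 or 3, LS replicate 2 or 3, or LL replicate 1, 2 without SL replicate 2 or 3 or LL replicate 3, and 3 without LL replicate 2. Counts over all genes moved too. For SL against SS, 1249 of 17687 genes were higher and 666 lower in the main fit, and 1280 and 727 under voom. For LL against SL these were 588 and 966, and 965 and 1022 under voom. For LL against LS they were 424 and 46, and 575 and 55 under voom. For the interaction, 378 and 564 became 510 and 508 of 18698 under voom with the 10-fragment filter. Where a group kept a single library, that library was assumed to vary like the others. The causes of these changes were not tested. With the replicate number as a block, the counts were 4 for SL against SS (all lower), 8 for LL against SL, 5 for the interaction and 0 for the others. Over all 17687 genes the block called 1250 higher and 661 lower for SL against SS, and 584 and 958 for LL against SL. For the interaction it called 372 and 543. The covariate called 855 and 339 of all genes for SL against SS, 261 and 519 for LL against SL, and 24 and 72 for the interaction. Over all tested genes, same-numbered libraries correlated between -0.0696 and 0.0959, and differently numbered ones between -0.141 and 0.105. The best match was a same-numbered library in 15 of 36 cases and a differently numbered one in 21. No pairing was used in the main fit, and whether the cilia genes follow the replicate number was not tested. The filter of 0.5 FPKM left 26 of the 69 untested, 23 of them with 10 or more fragments in 3 libraries; Cfap97d1, Tekt3 and Rsph6a had too few fragments for that.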
